A study of Zea mays with 24 samples.

Results

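A group of 3 probes for genes of sugar and carbon shortage was followed in maize primary roots in the cold. They are MZ00013532, annotated as phosphoenolpyruvate carboxykinase (PEPCK), and MZ00037140 and MZ00040560, both annotated as the precursor of a glucose starvation-induced protein from clone pZSS2. These 3 probes of the 43393 genes on the array were chosen by their identifiers, because the study listed PEPCK among the genes changed in the variety PR39B29 and both pZSS2 probes among those changed in the variety Picker. The ratios of cold to control RNA in those varieties therefore chose the probes and are given as a description, with no test. Differences between varieties that include those ratios are likewise given without a test. Tests of RNA levels, given further below, draw on those ratios in part. Roots of 4 varieties were grown in the dark under a cold regime (16 h at 12 °C and 8 h at 6 °C) or a control regime (16 h at 18 °C and 8 h at 12 °C). Of these varieties Picker and PR39B29 tolerated chilling better than Fergus and Codisco. Both regimes lay below the optimal range for maize, so the control roots were cool as well. Roots were taken on day 1 after germination, or on day 8 by the sample labels, which also put the cooler control period at 6 h.

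PEPCK converts oxaloacetate to phosphoenolpyruvate, a step that lets carbon from organic acids, amino acids or stored lipid return towards sugars. In germinating seedlings it works in gluconeogenesis beside the glyoxylate cycle, and in other plant tissues it takes part in organic acid and nitrogen metabolism. Clone pZSS2 was isolated from maize root tips starved of glucose, and a second annotation of both probes names a maize defence-related protein. Its biochemical function is not given in the sources used here.

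Of the 3 probes, 1 has sequence in the sources used here. It is MZ00037140, for which the study designed a pair of primers of 20 bases each for real-time PCR, shown because they mark the transcript that the pZSS2 results turn on.
MZ00037140 forward primer: aagtaaggccacgcgtttta
MZ00037140 reverse primer: cctggactacgagacggtgt
The forward primer holds 9 bases that are G or C and the reverse primer 12. The genes were not placed on a genome, since no table used here ties these probes to a locus.

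Each measurement is a log2 ratio of the 2 RNAs hybridised together on a 2-colour array (the M-value), so that a value of 1 is a doubling and 0 is no difference. There were 24 arrays in 3 replicate loops of 8. A loop had 4 direct arrays, with cold and control RNA from a single variety, and 4 linking arrays, on which cold RNA met the control RNA of a different variety. The 3 replicates were independent biological replicates by the study's methods. An array held values for 18268 to 43108 genes, and the SD of its M-values lay between 0.54 and 2.60, so a ratio is also given by its rank on its own array. Ratios hold no level, so the root label could not be checked against markers of root tissue. As ratios, the probe of root-specific protein RCc3 (MZ00015009) averaged a log2 cold over control of 3.32 ± 1.85 (SD) on the direct arrays and was above 0 on 12 of 12. That of root cap protein 2 (MZ00032161) averaged −2.70 ± 2.54 (SD) and was above 0 on 1 of 12. Both also come from the study's lists, and the part of root tissue make-up in the ratios below was not tested.

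All ratios are given as cold over control, and this direction is likely but not settled. By the labels Cy5 marked cold RNA on all arrays, whereas in the titles the control leads on direct arrays and the cold RNA leads on linking arrays. As deposited, 39 of 48 comparisons of a direct with a linking array, each within a replicate, gave a negative correlation over genes (median Spearman's rho −0.26). The ratio was therefore read as the first-named over the second-named RNA, the orientation of the study's gene lists, which turns the sign of the direct arrays. For some genes of these lists, MZ00037140 among them, the study reported a strong correlation of array values with real-time PCR. The PCR values themselves were not checked here. If the second-named RNA was on top, every sign below turns and PEPCK would be lower and the pZSS2 probes mostly higher in the cold. All direct arrays had the same dye orientation, so a dye effect of a probe is part of its ratio. In replicate 2 the deposited values of the direct PR39B29 array nearly equalled those of the linking array with Picker cold and PR39B29 control RNA (Pearson's r = 0.987 over 22672 genes). In cold over control the direct array followed the direct PR39B29 array of replicate 1 over genes (Spearman's rho 0.82) and the linking array ran against it (rho −0.82). Most means and contrasts that rest on these 2 arrays are also given without them, and some levels without the whole of replicate 2.

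PEPCK RNA was higher in cold than in control roots on the direct arrays of all 4 varieties. In Picker its log2 ratio was 2.83, 3.64 and 2.96 in replicates 1, 2 and 3, a mean of 3.15 ± 0.44 (SD, n = 3) or 8.85-fold. In PR39B29, the variety that chose the probe, it was 2.19, 1.83 and 4.33, a mean of 2.78 ± 1.35 (SD, n = 3) or 6.88-fold, and 3.26 without the nearly identical array. The third replicate stood well above the others in PR39B29, whereas the Picker replicates lay close together. In Fergus the ratio was 2.51, 3.07 and 2.26, a mean of 2.62 ± 0.41 (SD, n = 3) or 6.13-fold. In Codisco it was 2.65, 5.61 and 3.09, a mean of 3.78 ± 1.59 (SD, n = 3) or 13.8-fold, the highest mean of the 4 varieties and the one with the widest spread. No direct array lay near 0, and the lowest and highest of the 12 were 1.83 and 5.61, with a median of 2.90.

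PEPCK was thus higher on 12 of 12 direct arrays, 3 of which chose it. Of the 12708 genes with a value on all of these arrays 4.66% were higher on every one, and of the 2546 among them that were kept for testing 11.1%. On each direct array the PEPCK ratio exceeded that of at least 96.5% of the genes measured on it (median 99.3%). Among the genes tested in each variety, 0.59% in Picker and 0.97% in PR39B29 had a higher mean ratio than PEPCK. That share was 2.55% for Fergus and 0.74% for Codisco. This pattern had been seen in earlier results of the same arrays and is no independent support.

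Where the study's list had not chosen it, PEPCK passed limma's moderated test in Fergus (adjusted p = 0.0425, 4.06% of 4706 genes called). That call was lost without replicate 1, 2 or 3 (adjusted p between 0.0608 and 0.277), while the mean ratio stayed between 2.39 and 2.79. In Picker limma gave an adjusted p of 0.0523 (0.297% of 4377 genes called) and in Codisco 0.349 (0% of 4610 genes called), neither past the threshold of 0.05. A limma fit that shared the spread of all 12 direct arrays called PEPCK in both (adjusted p = 0.0473 in Picker and 0.0133 in Codisco). It called 10 of the 2546 genes tested in Picker and 633 of them in Codisco. Averaged over Picker, Fergus and Codisco in that shared fit, the log2 ratio of PEPCK was 3.18 (SE 0.35, 95% interval 2.42 to 3.94, adjusted p = 1.24e-04). In that fit 55.8% of the 2546 tested genes were called, so the call itself was shared with most of them. Without the variance filter described below 3709 of 12708 genes were called, PEPCK among them (limma adjusted p = 1.82e-04). With any replicate left out the estimate lay between 2.72 and 3.44 and stayed called. Without the nearly identical arrays, which enter only the shared spread, the average kept its call (adjusted p = 3.75e-04). The study listed changed genes in Picker and PR39B29 and none in Fergus or Codisco. Here, by contrast, limma called 4.06% of the genes tested in Fergus and 0 of 3695 in PR39B29. The cause of that difference from the study was not tested.

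The linking arrays were less even for PEPCK. With Fergus cold against Picker control RNA the log2 ratio was 2.60, 3.41 and 2.67, a mean of 2.89 ± 0.45 (SD, n = 3). With Picker cold against PR39B29 control RNA it was 1.66, −1.94 and 4.65, where the negative value comes from the array that nearly equals a direct array, and the mean was 1.46, or 3.15 without that array. With PR39B29 cold against Codisco control RNA it was 3.83, 2.69 and −3.89, and with Codisco cold against Fergus control RNA 4.51, −0.55 and 1.41. The Fergus cold arrays thus lay about as close together as the direct Fergus or Picker arrays, while each of the other 3 kinds of linking array held 1 negative value among 3. PEPCK was higher in the cold RNA on 9 of 12 linking arrays, and on those 9 it lay among the 5% of genes with the highest ratios. On 2 of the others it lay among the 5% with the lowest ratios. They were the nearly identical array and PR39B29 cold against Codisco control RNA in replicate 3.

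Round a closed loop the mean of the 4 direct ratios and the mean of the 4 linking ratios both estimate cold over control averaged over the varieties. For PEPCK the direct mean was 2.55 and the linking mean 3.15 in loop 1, a gap smaller than the replicate spread in PR39B29 or Codisco. In loop 2 the direct mean was 3.54 and the linking mean 0.90, and in loop 3 the direct mean was 3.16 and the linking mean 1.21. Without the nearly identical arrays the direct mean of loop 2 was 4.11 and its linking mean 1.85. These means no longer cover the same RNAs, so differences between varieties need not cancel in them. The direct arrays exceeded the linking arrays by 1.33 ± 1.71 (SD, n = 3 loops), and by 1.20 without the nearly identical arrays. Leaving out loop 1 raised the difference to 2.29. The direct means hold the PR39B29 arrays that chose the probe, so this difference is given without a test.

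**Figure D1:**
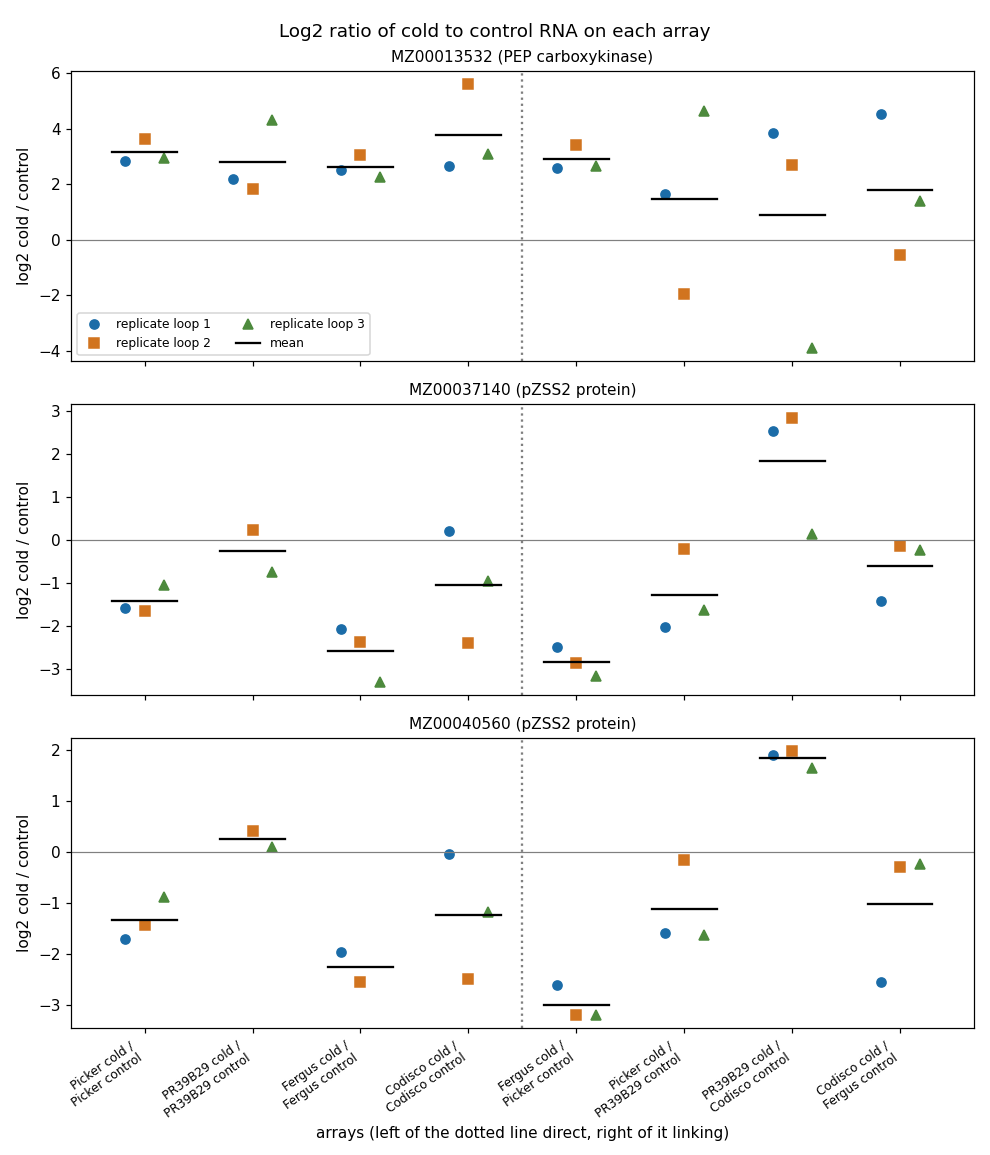
Log2 ratio of cold to control RNA (vertical axis) of the 3 probes on each array, with the 4 kinds of direct array left of the dotted line and the 4 kinds of linking array right of it. Points are single arrays marked by replicate loop and bars are means. PEPCK lies between 1.83 and 5.61 on all direct arrays, and the pZSS2 probes lie below 0 in Picker and Fergus and above 0 on the arrays of PR39B29 cold against Codisco control RNA.

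The pZSS2 probes ran the other way in Picker and Fergus. MZ00037140 had a log2 ratio of −1.57, −1.65 and −1.04 in Picker, the variety that chose both probes, a mean of −1.42 ± 0.33 (SD, n = 3). MZ00040560 was at −1.71, −1.44 and −0.88 there, a mean of −1.35 ± 0.43 (SD, n = 3). All 6 values lay below 0, and for both probes replicate 3 was the nearest to 0. The averages that the study listed for both probes in Picker lay further below 0 than these means. In Picker 30.3% of the 4377 tested genes were lower on all 3 direct arrays, and 13.8% had a lower mean than MZ00037140.

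In Fergus the pZSS2 probes lay lower still. MZ00037140 was at −2.08, −2.36 and −3.29, a mean of −2.57 ± 0.63 (SD, n = 3), or 5.96-fold lower in cold than in control roots. MZ00040560 was at −1.97 and −2.56 in replicates 1 and 2 and had no value in replicate 3. MZ00037140 passed limma's test in Fergus (adjusted p = 0.0460), and 3.02% of the genes tested there had a lower mean. Of those genes 22.3% were lower on all 3 direct arrays of Fergus. That call was lost without replicate 1, 2 or 3 (adjusted p between 0.0587 and 0.272), while the mean ratio stayed between −2.82 and −2.22. MZ00040560 was not tested in Fergus, since the test took only genes with a value on all 3 arrays.

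In the remaining varieties the ratios lay nearer to 0 or spread widely. In PR39B29 neither probe had a value in replicate 1. MZ00037140 was at 0.22 and −0.75 in replicates 2 and 3, and MZ00040560 at 0.42 and 0.10, so that 3 of these 4 values were above 0. The replicate 2 values come from the nearly identical array, and without it 1 value of each probe was left. In Codisco MZ00037140 was at 0.20, −2.39 and −0.96, a mean of −1.05 ± 1.30 (SD, n = 3), and MZ00040560 at −0.03, −2.50 and −1.18, a mean of −1.24 ± 1.24 (SD, n = 3). Both probes were near 0 in replicate 1 and lowest in replicate 2 of Codisco, and neither passed limma's test (adjusted p = 0.392 for MZ00037140 and 0.362 for MZ00040560).

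Over PR39B29, Fergus and Codisco, the varieties whose tables did not list them, both pZSS2 probes averaged below 0. The mean log2 ratio was −1.30 for MZ00037140 (SE 0.33, limma adjusted p = 0.0139) and −1.08 for MZ00040560 (SE 0.35, limma adjusted p = 0.0366), in a fit that allowed missing arrays and called 34.1% of 4507 genes. The average does not describe PR39B29, whose means were −0.26 for MZ00037140 and 0.26 for MZ00040560 (n = 2 each). Without the nearly identical arrays, with PR39B29 at a single value assumed to vary like the other varieties, the average was −1.46 for MZ00037140 (limma adjusted p = 0.0406) and −1.13 for MZ00040560 (0.101, no longer called). With replicate 1, 2 or 3 left out it was −1.59, −1.27 and −1.03 for MZ00037140 (adjusted p = 0.0123, 0.123 and 0.246) and −1.38, −0.82 and −1.04 for MZ00040560 (0.0248, 0.318 and 0.240), so both calls were lost without replicate 2 or 3.

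On the linking arrays the pZSS2 ratios depended on the pair of varieties. With Fergus cold against Picker control RNA MZ00037140 was at −2.48, −2.86 and −3.16 and MZ00040560 at −2.62, −3.20 and −3.21, the lowest group of both probes. With PR39B29 cold against Codisco control RNA MZ00037140 was at 2.54, 2.84 and 0.13 and MZ00040560 at 1.90, 1.98 and 1.64. These were the only linking arrays on which either probe was above 0. With Picker cold against PR39B29 control RNA MZ00037140 was at −2.03, −0.21 and −1.63 and MZ00040560 at −1.59, −0.16 and −1.63, with the value nearest to 0 on the nearly identical array. Without that array the mean of this kind moved to −1.83 for MZ00037140, against −1.29 with it, and to −1.61 for MZ00040560, against −1.13. With Codisco cold against Fergus control RNA MZ00037140 was at −1.41, −0.15 and −0.23 and MZ00040560 at −2.57, −0.29 and −0.23. Each of these 2 kinds of array was below 0 on 3 of 3 replicates for both probes.

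In log2 units the direct and linking means of the loops differed less for the pZSS2 probes than for PEPCK. The direct mean of PEPCK was also larger in size (3.08, against −1.40 for MZ00037140 and −1.14 for MZ00040560). In loop 1 the direct means of both pZSS2 probes lack PR39B29, and in loop 3 that of MZ00040560 lacks Fergus. Differences between varieties need not cancel in those loops, nor in loop 2 without the nearly identical arrays. Direct minus linking was −0.68 ± 0.66 for MZ00037140 and −0.31 ± 0.70 for MZ00040560 (SD, n = 3 loops each), and −0.89 and −0.49 without the nearly identical arrays. The Picker arrays that chose these probes enter the direct means, so these differences too have no test. The largest gap of MZ00037140 was in loop 2, with a direct mean of −1.54 and a linking mean of −0.10.

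The probes of clone pZSS2 gave nearly the same ratios. Over the 22 arrays that measured both, MZ00037140 minus MZ00040560 averaged 0.03 ± 0.54 (SD), with a median absolute difference of 0.19. They lay within 0.5 of each other on 17 of the 22 arrays and had the same sign on 20. Spearman's rho was 0.94 and Pearson's r 0.94, where the points share arrays and RNAs within each loop. The 3 arrays of PR39B29 cold against Codisco control RNA were among the 5 that differed most, at 0.63, 0.86 and −1.51. The others of these 5 were Codisco cold against Fergus control RNA in replicate 1, at 1.16, and direct PR39B29 in replicate 3, at −0.85. Both probes carry the same annotation and are not counted here as 2 independent measurements.

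**Figure D2:**
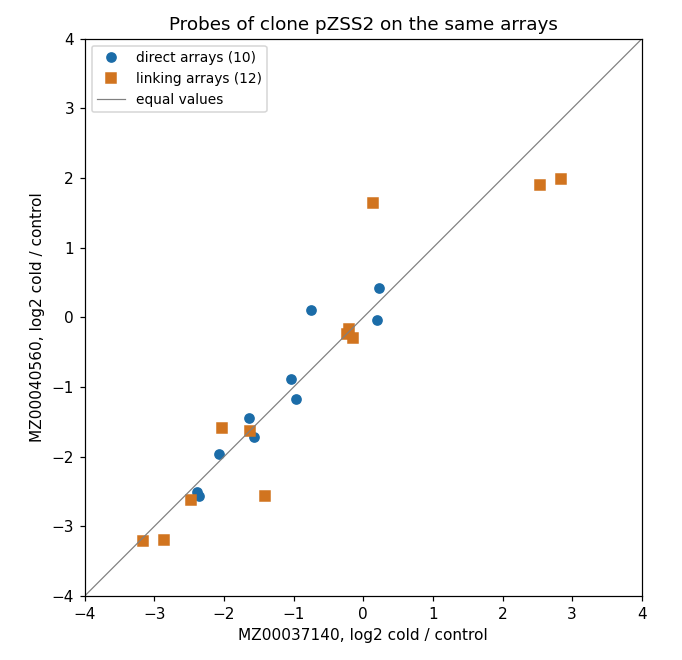
Log2 ratio of cold to control RNA of MZ00040560 (vertical axis) against MZ00037140 (horizontal axis) on the 22 arrays that measured both, with direct arrays as circles, linking arrays as squares and equal values as the line. Of the 22 points 17 lie within 0.5 of the line.

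Whether the cold response differed among varieties was tested on the direct arrays, for pairs without the variety that chose the probe. For PEPCK Fergus minus Codisco was −1.17 (95% interval −3.03 to 0.69, limma adjusted p = 0.885), Picker minus Codisco −0.64 (95% interval −2.50 to 1.22, limma adjusted p = 0.908) and Picker minus Fergus 0.53 (95% interval −1.33 to 2.39, limma adjusted p = 0.998). None of the 3 was called, nor was any of the 2546 genes tested (0%). At its wider end each of these intervals allows a difference of several-fold. As a description, the tolerant varieties minus the less tolerant ones came to −0.24. The sign of that difference turned with scaled arrays (0.20) and without replicate 2 (0.45), and without the nearly identical arrays it was 0.00109.

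For the pZSS2 probes the largest difference in response among these pairs was between PR39B29 and Fergus. PR39B29 minus Fergus was 2.31 for MZ00037140 (95% interval 0.46 to 4.16) and 2.52 for MZ00040560 (95% interval 0.52 to 4.53), each with a limma adjusted p of 0.312. Neither was called after adjustment over 4507 genes, of which 0% were called, although the unadjusted intervals lay above 0. Unadjusted limma p-values were below 0.05 for 606 of these genes, so an interval clear of 0 was common. Both intervals include the nearly identical array. Without the nearly identical arrays, where PR39B29 has 1 value of each probe, the difference was 1.82 for MZ00037140 and 2.37 for MZ00040560. These are given without an interval. PR39B29 minus Codisco was 0.78 for MZ00037140 (95% interval −1.06 to 2.63, limma adjusted p = 0.578) and 1.496 for MZ00040560 (95% interval −0.34 to 3.33, limma adjusted p = 0.370). Without the nearly identical arrays the first of these was 0.30 and the second 1.34. As a description, the tolerant varieties minus the less tolerant ones came to 0.97 for MZ00037140 and to 1.21 for MZ00040560. Without the nearly identical arrays, which leaves PR39B29 with 1 value of each probe, these differences were 0.73 and 1.13. That grouping averages Picker, where both probes were below 0, with PR39B29, where they were near 0.

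**Figure D3:**
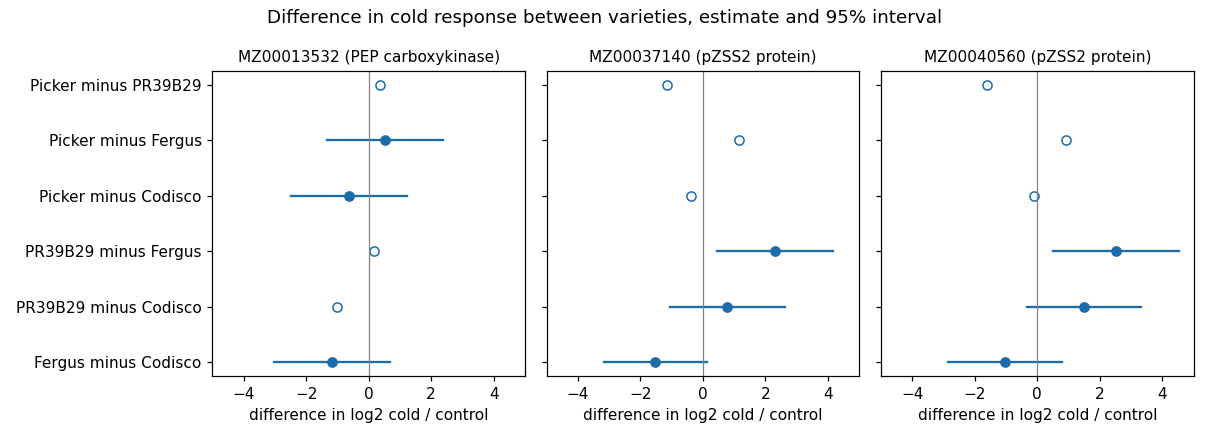
Difference between varieties in the log2 ratio of cold to control RNA (horizontal axis) for the 6 pairs of varieties (rows) and the 3 probes (panels). Points are limma estimates and lines 95% intervals, without adjustment for the number of genes, and open points without a line are pairs with the variety that chose the probe. With the nearly identical array included, the intervals of PR39B29 minus Fergus lie above 0 for both pZSS2 probes. The 3 intervals of PEPCK span 0.

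Since each loop joins all 8 RNAs, the level of each RNA relative to the mean of its loop was estimated by least squares. For PEPCK the 4 cold RNAs had the highest mean levels. They were 2.12 ± 1.06 in Codisco, 1.62 ± 1.08 in Fergus, 0.55 ± 0.67 in Picker and 0.54 ± 2.07 in PR39B29 (SD, n = 3 loops each). The control RNAs followed at −0.33 ± 1.84 in Fergus, −0.997 ± 2.11 in Codisco, −1.57 ± 3.04 in PR39B29 and −1.94 ± 0.51 in Picker (SD, n = 3 loops each). No neighbours in this order differed by more than the SD of their difference over the loops. None of the 12 pairs of cold RNAs or of control RNAs was called by limma. These levels draw in part on the PR39B29 direct arrays that chose the probe, so this is no independent test. PR39B29 control RNA set much of the spread, at −5.07 in loop 3 against −0.15 and 0.49 in loops 1 and 2. Without replicate 2, which holds the nearly identical arrays, the cold means still lay above the control means, with PR39B29 control RNA at −2.61 and Codisco control RNA at 0.00593.

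For MZ00037140 both RNAs of PR39B29 were at the top and Fergus cold RNA at the bottom. The mean levels were 1.43 ± 0.72 in PR39B29 cold and 1.29 ± 0.09 in PR39B29 control RNA, −0.29 ± 0.48 in Picker cold and 0.84 ± 0.38 in Picker control RNA, −0.88 ± 0.77 in Codisco cold and −0.12 ± 0.92 in Codisco control RNA, and −2.28 ± 0.66 in Fergus cold and 0.01 ± 0.68 in Fergus control RNA (SD, n = 3 loops each). Among the neighbours in this order, PR39B29 control over Picker control RNA (0.45) and Codisco cold over Fergus cold RNA (1.40) kept their order in 3 of 3 loops and differed by more than the SD of the difference. The other neighbours did not. The first of these differences barely passed its SD (0.43). In loop 2, which holds the nearly identical arrays, Picker minus PR39B29 control RNA was only −0.0094. It also draws in part on the Picker direct arrays that chose the probe. Without replicate 2 PR39B29 control RNA (1.34) and PR39B29 cold RNA (1.07) were still highest and Fergus cold RNA (−2.22) lowest.

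PR39B29 cold exceeded Fergus cold RNA in MZ00037140 by 3.00, 4.54 and 3.57 in the 3 loops, a mean of 3.70 (95% interval 1.98 to 5.43). This was the only call of the 12 level comparisons of that probe (limma adjusted p = 0.0397, 0.735% of 2858 genes called). It was not called when p-values were adjusted over the 12 comparisons together (adjusted p = 0.134), with scaled arrays (0.158), or without any replicate (between 0.0511 and 0.423), of which replicate 2 holds the nearly identical arrays. With the dye labels read literally it was 0.53 (limma adjusted p = 0.779), so the size of the difference rests on the direction chosen. The levels draw in part on the Picker direct arrays that chose the probe. Along the 4 arrays of each loop that join these RNAs without Picker RNA, which also leaves out the nearly identical arrays, the difference was 3.00, 7.44 and 4.15, a mean of 4.86 ± 2.30 (SD, n = 3), and was not called (limma adjusted p = 0.165, 0.926% of 2268 genes called). The same difference of MZ00040560 was 1.34, 4.55 and 4.06, a mean of 3.31 (95% interval 1.51 to 5.12, limma adjusted p = 0.0722), and 1.15 with the dye labels read literally. In loop 1 neither probe had a direct PR39B29 value, so only the arrays without Picker RNA join these RNAs. The value of MZ00037140 in that loop is therefore the same in both estimates. In loop 3 MZ00040560 had no direct Fergus value, so its 4.06 runs only through Picker RNA. That route includes the direct Picker array that chose the probe. Within these limits both probes were higher in PR39B29 than in Fergus cold roots in 3 of 3 loops in the direction used here.

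MZ00040560 had a similar order of levels. PR39B29 cold and control RNA were at 1.32 ± 0.87 and 1.35 ± 0.35, Picker cold and control RNA at 0.04 ± 0.18 and 1.20 ± 0.37, Codisco cold and control RNA at −1.39 ± 0.27 and −0.34 ± 1.10, and Fergus cold and control RNA at −1.99 ± 0.86 and −0.18 ± 0.98 (SD, n = 3 loops each). In this order Picker cold lay below Picker control RNA by 1.16 and Codisco cold below Codisco control RNA by 1.05, both in 3 of 3 loops and by more than the SD of the difference. The Picker difference draws on the ratios that chose the probe and is a description only. The other neighbours did not differ by more than that SD. None of the 12 pairs of cold RNAs or of control RNAs was called. These levels, too, draw in part on the Picker direct arrays that chose the probe. Without replicate 2 PR39B29 control RNA (1.55) was still highest and Fergus cold RNA (−1.68) lowest. Picker control RNA (1.24) then lay above PR39B29 cold RNA (1.02).

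**Figure D4:**
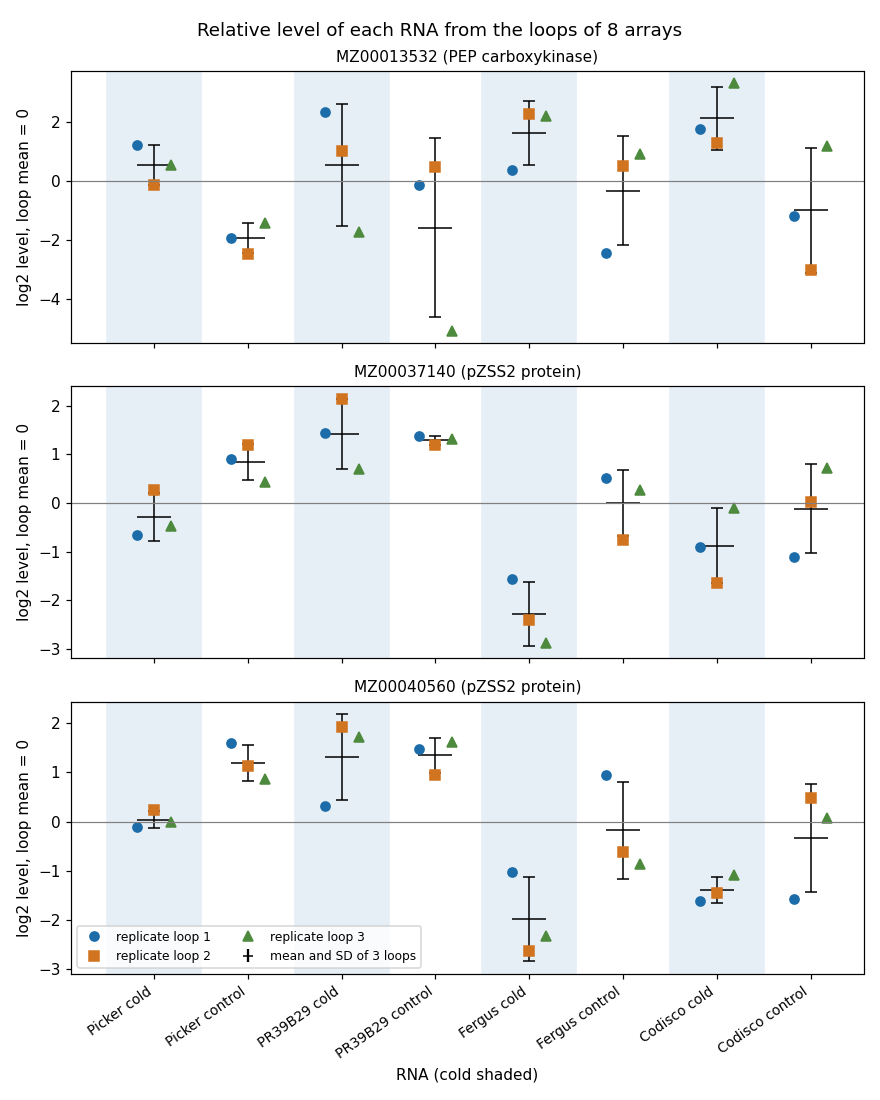
Log2 level of each of the 8 RNAs relative to the mean of its loop (vertical axis) for the 3 probes, with cold RNAs shaded and left of the control RNA of the same variety. Points are the 3 loops and black marks the mean and SD. Levels of PEPCK are highest in the cold RNAs, and those of the pZSS2 probes are highest in PR39B29 and lowest in Fergus cold RNA.

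The genes most like each probe were taken by Spearman's rho over the arrays, as a description of arrays that share RNAs. For PEPCK, measured on 24 arrays, they were MZ00015070 (rho 0.83), MZ00039312 (rho 0.81), MZ00019306 (rho 0.79), MZ00016970 (rho 0.77) and MZ00016952 (rho 0.77). Of 17283 genes compared, 1% had a rho above 0.57. All 5 changed less than PEPCK, with mean log2 ratios on the direct arrays between 0.58 and 1.19, and MZ00016952 was the one that was higher in the cold on 12 of 12 of them. The closest gene to MZ00037140 was MZ00040560, followed by MZ00024405 (rho 0.83), MZ00030193 (rho 0.79), MZ00025188 (rho 0.78) and MZ00020317 (rho 0.76). After MZ00037140, those closest to MZ00040560 were MZ00025188 (rho 0.82), MZ00036931 (rho 0.80), MZ00032312 (rho 0.79) and MZ00056450 (rho 0.79). Apart from the pZSS2 probes themselves the sources used here give none of these genes a product. PEPCK and the pZSS2 probes were weakly related, with a rho of −0.22 for MZ00037140 and −0.29 for MZ00040560. Of 77 symbols of genes in gluconeogenesis, the glyoxylate cycle, sucrose and starch breakdown and sugar sensing, 0 matched a probe name, so the rest of these pathways was not counted.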

How the data were processed

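Primary root RNA of 4 maize varieties under a cold and a control regime was hybridised on 24 2-colour arrays. With CARMAweb, which runs limma, the authors applied a minimum background correction, print-tip loess within arrays and scaling between arrays, and deposited the log2 ratio (M-value) of each spot. No tool version is stated there. A second table was used for probe names only, and its 96 slide columns, which no label ties to a sample, were left out. Channel intensities were not used, so nothing is said of signal over background, and the number of arrays limits the precision.

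After averaging the spots of a probe, genes were ranked by variance over the 24 arrays. The top 40% went into the tests (16945 of 42364 with 2 or more values), after the study's methods. The methods do not name the arrays used for that variance. Here it was taken before the sign of the direct arrays was turned. A steady cold response then adds to a gene's variance, so the filter favoured such genes and was not independent of the tests. Over the varieties without PR39B29 1420 of 2546 genes were called with the filter and 3709 of 12708 without it. Means were tested in R 4.3.3 with limma 3.58.1 (tables were read with the data.table package, version 1.17.8, and figures drawn with matplotlib 3.10.9), with Benjamini and Hochberg adjustment over all genes tested and a threshold of 0.05. In each variety the 3 direct arrays were tested against 0 among genes with 3 values. Contrasts came from one fit of the 12 direct arrays. The pZSS2 probes lack direct values in PR39B29 replicate 1, and MZ00040560 also in Fergus replicate 3, so their contrasts come from a fit, added after the data were seen, that allowed missing arrays with 2 or more values for each variety. The scripts were tested on simulated data. The probes and gene lists were chosen with earlier results of these data known. The text names the 3 probes, the 5 genes most like each over 20 or more shared arrays, and pathway genes whose symbol matched a probe.

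Alternatives were no variance filter, one fit with or without a replicate block, arrays centred on the median and scaled by the median absolute deviation, dye labels read literally and each replicate left out. Leaving out the nearly identical arrays, adjusting level tests over all 12 comparisons, fits with 1 value for a variety and the level difference along arrays without Picker RNA were added after the data were seen.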

Additional observations from a re-analysis of the deposited data

Results flagged for a closer look

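For MZ00040560 the sign on the direct arrays differed between PR39B29 and the other varieties. The other pZSS2 probe, MZ00037140, did not share this pattern. It was at 0.22 and −0.75 in PR39B29 and at 0.20 in Codisco replicate 1. All measured MZ00040560 values in PR39B29 were above 0 (0.42 and 0.10, mean 0.26, n = 2). Those of Picker (mean −1.35, n = 3), Fergus (mean −2.26, n = 2) and Codisco (mean −1.24, n = 3) were all below 0. The difference in its log2 ratio was −1.60 for Picker minus PR39B29 (−1.45 without the nearly identical arrays), given without a test since the Picker ratios chose the probe. It was 2.52 for PR39B29 minus Fergus (limma adjusted p = 0.312) and 1.496 for PR39B29 minus Codisco (limma adjusted p = 0.370), and neither was called. These pairs were singled out because their values ran opposite ways. The PR39B29 value of 0.42 comes from the nearly identical array of replicate 2. The value of 0.10 exceeded 55.4% of the genes on its array, near the middle. The Codisco value of replicate 1 was −0.03. The part of the nearly identical array and of the missing replicate 1 in these differences was not tested.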

How the results depend on the processing

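With the dye labels read literally the direct means turned sign. PEPCK then stood at −3.15, −2.78, −2.62 and −3.78 in Picker, PR39B29, Fergus and Codisco, MZ00037140 at 1.42, 2.57 and 1.05 in Picker, Fergus and Codisco, and MZ00040560 at 1.35, −0.26, 2.26 and 1.24 in Picker, PR39B29, Fergus and Codisco. Under that reading 2 calls were made over the 6 pairs of cold levels (against 45). With arrays centred and scaled, calls were 16 over the pairs of control levels (against 1) and 169 over those of cold levels. Each pair then had 3575 genes tested, against 2858. The tolerant minus less tolerant difference of PEPCK was 0.20 with scaled arrays. Without the nearly identical arrays that difference was 0.00109, PEPCK's Picker minus PR39B29 difference was −0.11 (against 0.36), and the average of MZ00040560 over the varieties without Picker was −1.13 and no longer called. Without the variance filter 0 of 17854 genes were called in Picker (against 13 of 4377) and 423 of 19096 in Fergus (against 191 of 4706). Over the varieties without PR39B29 3709 of 12708 were called (against 1420 of 2546). Over those without Picker it was 2755 of 12708 (against 1121 of 2546). In Fergus and in both averages over varieties the counts were thus higher without the filter and the shares lower. In PR39B29 and Codisco 0 genes were called with or without it. With missing arrays allowed 2181 of 4507 genes were called over the varieties without PR39B29.

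In a single fit of the 12 direct arrays 2546 genes were tested in each variety. Of these 10 were called in Picker, 347 in Fergus and 633 in Codisco (against 0 of 4610). PEPCK was called there by limma in Picker (adjusted p = 0.0473) and Codisco (0.0133). With a replicate block in that fit 77 of the 2546 genes were called in Picker, 575 in Fergus and 1048 in Codisco. The block also called PEPCK in Picker (adjusted p = 0.0279) and Codisco (0.00581). Replicate numbers were not taken to pair the samples, since not every pair of direct arrays with the same number had a rho over 0.1. In replicate 1 it was 6 of 6 pairs (0.35 to 0.47), in replicate 2 it was 1 of 6 (−0.39 to 0.40) and in replicate 3 it was 4 of 6 (0.02 to 0.37), and 5 of 12 arrays correlated best with their own number. With the replicate block the PEPCK average over 3 varieties was called at an adjusted p of 8.43e-05, that of MZ00037140 (−1.21) at 0.0200 and that of MZ00040560 (−1.01) at 0.0468, and it changed no call of a difference among varieties for the 3 probes.

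With each replicate left out in turn, calls ran from 0 to 1514 in Picker, 0 to 2625 in PR39B29, 0 to 159 in Fergus, 0 to 53 in Codisco, 276 to 2820 over the varieties without PR39B29, 62 to 2471 over those without Picker, 0 to 20 for direct minus linking arrays, 11 to 84 over the pairs of control levels and 25 to 367 over those of cold levels. The number of genes tested also changed with the replicate left out, so these counts are not shares of a fixed total. PEPCK's tolerant minus less tolerant difference ran from −0.84 to 0.45 and its direct minus linking difference from 0.68 to 2.29, and that of MZ00037140 from −0.88 to −0.30 and that of MZ00040560 from −0.56 to 0.0924. The average over the varieties without Picker ran from −1.59 to −1.03 for MZ00037140 and from −1.38 to −0.82 for MZ00040560. Among pairs of varieties PEPCK ran from −0.36 to 1.23 for Picker minus PR39B29, −1.05 to 0.0236 for Picker minus Codisco, −0.78 to 0.87 for PR39B29 minus Fergus, −2.12 to 0.38 for PR39B29 minus Codisco and −1.68 to −0.48 for Fergus minus Codisco. For Picker minus Codisco MZ00037140 ran from −0.93 to 0.33 and MZ00040560 from −0.69 to 0.68, and for PR39B29 minus Codisco MZ00037140 ran from −0.37 to 1.41. The cause of these changes was not tested. Where leaving arrays out left a variety of the pZSS2 probes with 1 value, that value was assumed to vary like those of the other varieties.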
